A study of Canis lupus familiaris with 14 samples.

Results

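Cathepsins are the proteases of the lysosome. The rule for this gene family was a probe set of the array that carried exactly 1 of 9 symbols, CTSA, CTSB, CTSC, CTSD, CTSH, CTSK, CTSL, CTSS and CTSZ. Of these symbols, 8 were found on 16 probe sets, among 15115 genes on 29254 probe sets with exactly 1 symbol, and CTSL was on none under its own name. The study profiled fine needle aspirates of lymph nodes from pet dogs with lymphoma and from healthy dogs on GeneChip Canine Genome V2.0 arrays, 14 in all. Seen together, the 8 genes had lower mean signals in lymphoma for 6 genes and higher ones for CTSH and CTSZ, but no gene passed the test at the gene level in any comparison. LOC403708, a locus for which the RefSeq gene table lists CTSL as a synonym, was 9.80-fold lower. That locus was chosen after its values were seen.

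The lymphomas were 7 labelled B-cell, which were RB07 and RB10 from Boxers, NE41 from a Boxer/Pitt Bull Terr. Mix, NE42 from a Labrador Retriever, RB03 from a Pointer, FS21 from a Pitt Bull Terrier/Lab. Retriever Mix and RB16 from a Chesapeake Bay Retriever. The other 3 were labelled T-cell, which were FS22 from a Beagle, FS25 from a Boxer and NE45 from a Golden Retriever. All lymphomas arose naturally and were aspirated before an investigational PI3K inhibitor was given. FS21, FS22, FS25 and RB07 came from dogs with earlier treatment. The normal nodes were 63, 2970, 3024l and 3024r, of which 3024l and 3024r came from the same animal, so that 4 normal arrays stood for 3 dogs. All normal dogs were colony Beagles and FS22 was the only Beagle among the lymphomas, so that diagnosis, breed and colony cannot be told apart. The study had also sorted the lymphomas from these same profiles into class E-J (FS21, NE41, NE42, RB03, RB16 and FS22) and class K-N (RB07, RB10, FS25 and NE45), named after its sample letters. A level by class is therefore a description here, with no test.

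Most cathepsins are cysteine proteases, namely B, C, H, K, L, S and Z, whereas D is an aspartic protease and A a serine carboxypeptidase. They are made as inactive proenzymes, are carried to the lysosome mainly by mannose 6-phosphate receptors, and become active in its acid interior. Macrophages and dendritic cells hold much of them. In lymphoid tissue cathepsin S is best known for cutting the invariant chain that is bound to MHC class II molecules, a step before peptide loading. B cells, macrophages and dendritic cells all use cathepsin S. The reference tables used here held no protein, promoter or probe sequence, so none is printed.

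Of the 14 arrays, 4 stood apart or went against their labels. The ratio of the 3′ to the 5′ GAPDH control probe sets was 23.2 on 3024l, against 3.30 to 8.94 on the other 13 arrays, and a high ratio marks RNA that is read mainly near its 3′ end. Of the 8 cathepsin genes, 7 were lower on 3024l than on 3024r, with a median log2 difference of -0.97, beside 67.5% of 9400 genes and a median of -0.41. CTSA differed by -1.90, CTSC by -1.76, CTSB by -1.42 and CTSH by -1.39 between these nodes of a single dog, each more than the spread between the 3 normal dogs. RB07 and RB10 are labelled B-cell and FS22 T-cell, but most of their markers went the other way. The 7 B-cell markers summed to a signal of 8492 to 26708 in class E-J, which includes FS22 at the low end, and to 152 to 2427 in class K-N, which includes RB07 and RB10, against 5001 to 8711 in normal nodes. The B-cell marker MS4A1 was an exception in FS22 and RB10, with a log2 signal of 4.90 and 10.40, against 9.88 to 11.17 in normal nodes. In RB07 it was low, at 2.89, like most of the B-cell markers. NE45, labelled T-cell and in class K-N, had 10.89 for MS4A1. The 9 T-cell markers summed to 2858 to 15692 in class E-J and 51528 to 72510 in class K-N, against 14789 to 33626 in normal nodes. The 19 macrophage markers on the array summed to 10114 to 43850 in class E-J and 9501 to 25290 in class K-N, against 38073 to 87600 in normal nodes. RB16 alone gave the upper end of class E-J, with a log2 signal of 15.27 for LYZ, and the next sum was 20396 in RB03. The mean log2 signal of these markers was 7.12 to 8.01 in class E-J and 6.69 to 8.57 in class K-N, against 9.16 to 10.59 in normal nodes, with no overlap. An aspirate is a mixture, in which fewer cells of a type and less RNA per cell cannot be told apart. The median signal of an array ran between 85.5 and 131.

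**Figure D1:**
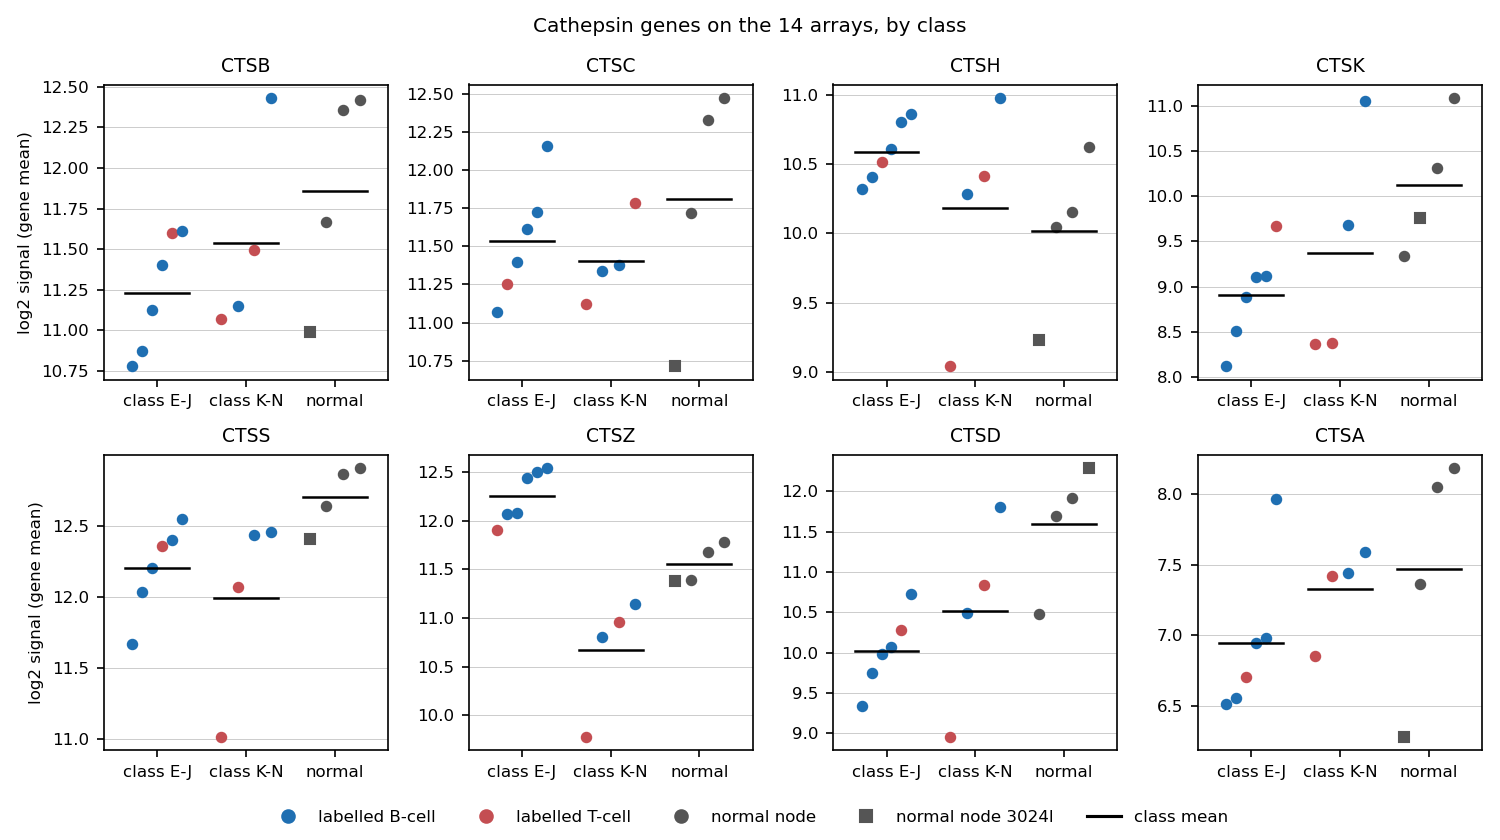
Each panel plots 1 cathepsin gene, with the log2 signal (mean over its probe sets) on the y axis and the classes E-J (6 arrays), K-N (4 arrays) and normal (4 arrays) on the x axis; points are arrays, coloured by the label, the square is normal node 3024l, and the line is the class mean. CTSZ is the gene whose 3 classes are fully apart, with 11.91 to 12.54 in class E-J, 9.78 to 11.14 in class K-N and 11.38 to 11.79 in normal nodes.

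Cathepsin S, encoded by CTSS, is the invariant chain protease named above. The log2 signal of CTSS in class E-J ran from 11.67 in FS21 to 12.55 in RB03, with a median of 12.28. In class K-N it was 12.44 in RB07, 12.45 in RB10, 12.07 in FS25 and 11.01 in NE45, and in normal nodes it was 12.64 in 63, 12.90 in 2970, 12.87 in 3024r and 12.41 in 3024l. Once both nodes of dog 3024 were averaged, every lymphoma was below every normal dog on this gene mean. Of the CTSS probe sets, the one ending in S1_s_at was lower with no overlap (-0.75, SE 0.32). The one ending in S1_at overlapped (-0.47, SE 0.32). CTSS averaged 12.12 ± 0.47 in lymphoma (SD, n = 10) and 12.73 ± 0.15 in normal dogs (SD, n = 3). The log2 difference was -0.61 (SE 0.30, adjusted p = 0.304 from limma over 9216 genes), and so CTSS did not pass the test. On array 3024l alone the normal value of 12.41 was below that of 3 lymphomas, RB03, RB07 and RB10.

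Cathepsin B, encoded by CTSB, cuts both inside proteins and at their carboxyl end. CTSB had log2 signals of 10.78 in RB16, 10.87 in NE42, 11.13 in NE41, 11.40 in FS21, 11.60 in FS22 and 11.61 in RB03, the lymphomas of class E-J. The class K-N lymphomas had 11.07 in NE45, 11.15 in RB10, 11.49 in FS25 and 12.43 in RB07, and the normal nodes 11.67 in 63, 12.36 in 2970, 12.42 in 3024r and 10.99 in 3024l. All lymphomas other than RB07 were therefore below 63, 2970 and 3024r, and 3024l was among the lymphomas. CTSB averaged 11.35 ± 0.48 in lymphoma (SD, n = 10) and 11.91 ± 0.39 in normal dogs (SD, n = 3), a log2 difference of -0.56 (SE 0.32, adjusted p = 0.377 from limma).

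The CTSB probe sets, named here by the start and the suffix of their identifiers, did not move alike. Cfa S1_s_at had signals of 420 to 902 in class E-J, of 1952 in RB07 and of 363 to 776 in the other class K-N lymphomas, against 1369, 2199 and 2388 in normal nodes 63, 2970 and 3024r and 404 in 3024l. Cfa A1_at had 7332 to 11727 in class E-J and 8104 to 15637 in class K-N, against 7725 to 12547 in the 4 normal nodes. The first of these probe sets was low in most lymphomas and in 3024l, and the second overlapped in all classes. Their log2 differences between lymphoma and normal were -1.07 (SE 0.45) and -0.04 (SE 0.28), and neither passed when every probe set was tested on its own (adjusted p = 0.223 and 0.961 from limma).

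Cathepsin K, encoded by CTSK, is the collagen-degrading protease of osteoclasts and is also made by macrophages and fibroblasts. CTSK was at 11.05 in RB07, the highest lymphoma, and at 8.12 in NE41, the lowest. The other class K-N lymphomas had 9.68 in RB10, 8.38 in FS25 and 8.36 in NE45, and class E-J ended at 9.67 in FS22. Normal nodes had 9.34 in 63, 11.08 in 2970, 10.32 in 3024r and 9.76 in 3024l, so that 3 lymphomas reached into the normal range. CTSK averaged 9.09 ± 0.88 in lymphoma (SD, n = 10) and 10.15 ± 0.88 in normal dogs (SD, n = 3), a log2 difference of -1.06 (SE 0.55, adjusted p = 0.318 from limma). Both CTSK probe sets gave values of the same sign, -0.96 (SE 0.56) and -1.17 (SE 0.57).

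Cathepsin Z, encoded by CTSZ, takes single residues off the carboxyl end of proteins. CTSZ had log2 signals of 12.54 in RB16, 12.50 in NE41, 12.44 in RB03, 12.08 in FS21, 12.07 in NE42 and 11.91 in FS22. In class K-N it had 11.14 in RB07, 10.96 in FS25, 10.80 in RB10 and 9.78 in NE45, against 11.79 in 3024r, 11.68 in 63, 11.39 in 2970 and 11.38 in 3024l, the normal nodes. All 6 lymphomas of class E-J were thus above all normal nodes and all 4 of class K-N were below them. The mean of class K-N was 3.0-fold below that of class E-J. Relative to the normal dogs, class E-J was 1.63-fold higher and class K-N 1.84-fold lower. Among all genes with enough signal, 6.82% were lower in class K-N than in class E-J with no overlap, 10% were higher in class E-J than in normal dogs and 13% were lower in class K-N than in normal dogs. In the opposite directions the shares were 4.73%, 11.3% and 9.6%. Pooled over both classes these levels gave 11.62 ± 0.91 in lymphoma (SD, n = 10) and 11.55 ± 0.15 in normal dogs (SD, n = 3), a log2 difference of 0.07 (SE 0.52, adjusted p = 0.962 from limma) that became -0.079 under quantile normalization.

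The CTSZ probe sets were also apart by class. CfaAffx S1_at had signals of 576 to 990 in class E-J and of 89.0 to 260 in class K-N, against 316 to 645 in normal nodes. Cfa A1_at had 25575 to 35999 in class E-J and 8643 to 19986 in class K-N, against 15468 to 22579 in normal nodes. On each of them class K-N was fully below class E-J, and both lymphoma classes met the normal range on at least 1 of the probe sets.

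Cathepsin H, encoded by CTSH, is an aminopeptidase that matures surfactant protein in the lung and is widely made in myeloid cells. CTSH ran from 10.32 in NE42 to 10.86 in RB03 in class E-J, with a median of 10.56, and from 9.04 in NE45 to 10.98 in RB07 in class K-N. Normal nodes had 10.05 in 63, 10.16 in 2970, 10.62 in 3024r and 9.23 in 3024l. Class E-J was above the 3 normal dogs with no overlap once 3024l and 3024r were averaged, but 3024r alone was within its range. Of all genes with enough signal, 10% were higher in class E-J than in normal dogs with no overlap. CTSH averaged 10.42 ± 0.54 in lymphoma (SD, n = 10) and 10.04 ± 0.12 in normal dogs (SD, n = 3), a log2 difference of 0.38 (SE 0.34, adjusted p = 0.588 from limma). Its probe sets Cfa S1_at and CfaAffx S1_s_at differed by 0.41 (SE 0.32) and 0.34 (SE 0.40). In the study's B-cell set, described below, they differed by 0.74 (SE 0.24) and 0.005 (SE 0.34), and neither passed.

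Cathepsin C, encoded by CTSC, is the dipeptidyl peptidase that activates the serine proteases of granulocyte, mast cell and cytotoxic granules. CTSC was at 11.07 to 12.16 in class E-J and at 11.12 to 11.78 in class K-N, and in normal nodes at 11.72 in 63, 12.33 in 2970, 12.48 in 3024r and 10.71 in 3024l. It averaged 11.48 ± 0.33 in lymphoma (SD, n = 10) and 11.88 ± 0.39 in normal dogs (SD, n = 3), a log2 difference of -0.40 (SE 0.26, adjusted p = 0.447 from limma). With 3024r alone for its dog the CTSC difference was -0.69 and with 3024l alone -0.10.

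Cathepsin D, encoded by CTSD, is the main aspartic protease of the lysosome. CTSD had log2 signals of 9.34 in RB16, 9.75 in FS21, 9.98 in NE41, 10.07 in NE42, 10.28 in FS22 and 10.73 in RB03. In class K-N it had 8.96 in NE45, 10.49 in RB10, 10.84 in FS25 and 11.80 in RB07, against 10.48 in 63, 11.92 in 2970, 11.69 in 3024r and 12.29 in 3024l, the normal nodes. Dog 63 lay among the lymphomas and RB07 among the normal nodes. CTSD averaged 10.22 ± 0.81 in lymphoma (SD, n = 10) and 11.46 ± 0.85 in normal dogs (SD, n = 3). The log2 difference of -1.24 (SE 0.51, adjusted p = 0.209 from limma) was the lowest of the 8 genes and ranked 1090 from the bottom of 9216 genes.

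A single CTSD probe set passed the test on its own and the other did not. CfaAffx S1_s_at had signals of 293 to 779 in class E-J and, in class K-N, of 223 in NE45, 394 in RB10, 624 in FS25 and 1433 in RB07, against 970 in 63, 2692 in 2970, 2545 in 3024r and 2712 in 3024l. RB07 was thus the only lymphoma above the lowest normal node. The log2 difference was -2.00 (SE 0.49, adjusted p = 0.0483 from limma over 26524 probe sets, of which 2.67% passed). The call was lost without any 1 of 11 dogs, with an adjusted p of up to 0.246 and a log2 difference of -2.49 to -1.75. Cfa S1_at had 1433 to 3713 in class E-J and 1106 to 8929 in class K-N, against 2106 to 9185 in normal nodes, with a log2 difference of -0.47 (SE 0.57, adjusted p = 0.724).

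Cathepsin A, encoded by CTSA, is a carboxypeptidase that also protects the enzymes beta-galactosidase and neuraminidase in a complex. The CTSA probe set CfaAffx S1_at was under a signal of 100 on all 14 arrays and was still part of the gene mean. Cfa S1_at had 405 to 698 in class E-J and 287 to 869 in class K-N, against 789, 865, 1115 and 693 in normal nodes 63, 2970, 3024r and 3024l. Its log2 difference was -0.72 (SE 0.31, adjusted p = 0.233 from limma). CfaAffx S1_s_at averaged 8.84 in lymphoma and 9.07 in normal dogs on the log2 scale, a difference of -0.23 (SE 0.33, adjusted p = 0.773 from limma). The gene mean of CTSA was 7.10 ± 0.48 in lymphoma (SD, n = 10) and 7.55 ± 0.44 in normal dogs (SD, n = 3), a log2 difference of -0.45 (SE 0.33, adjusted p = 0.493 from limma).

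**Figure D2:**
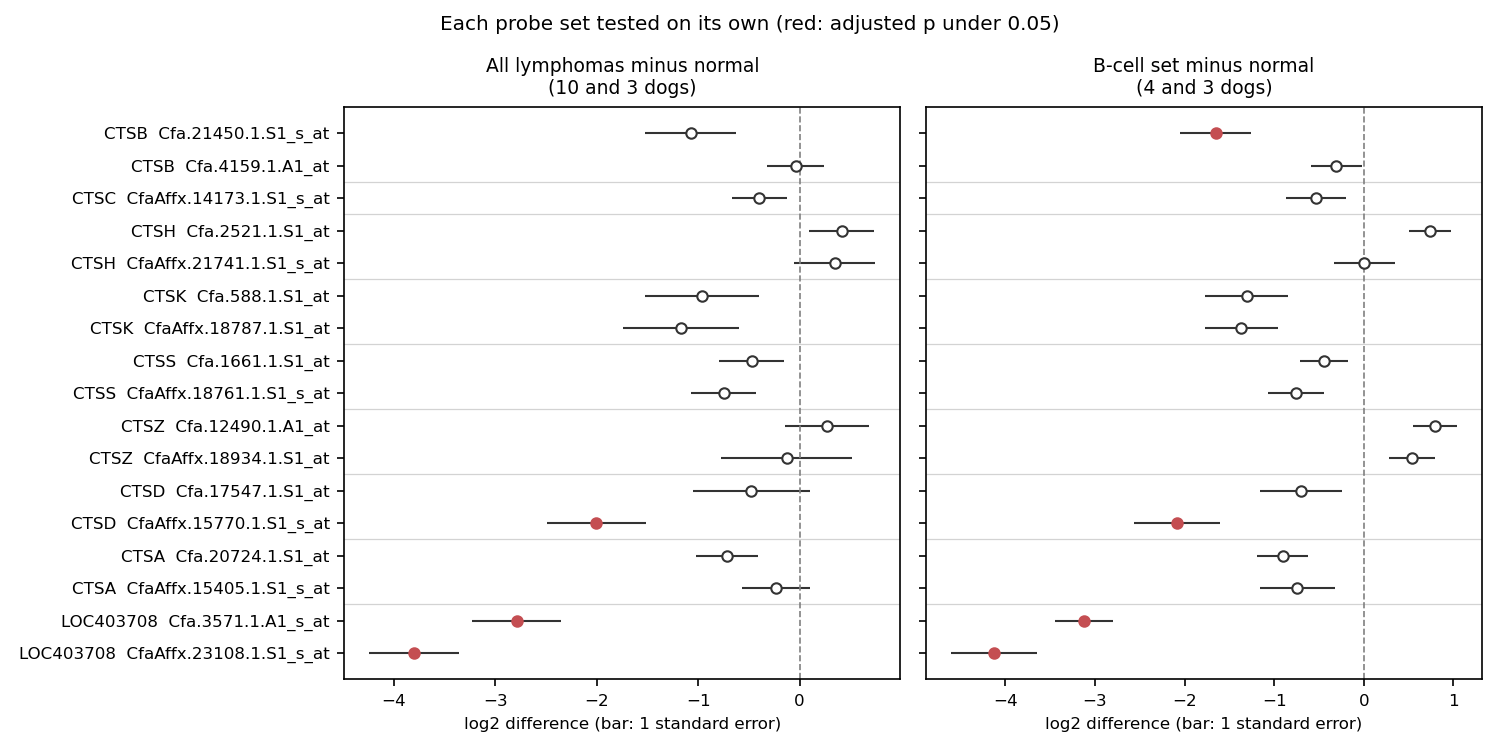
Log2 difference of each probe set of the cathepsin genes and of LOC403708 on the x axis, with a bar of 1 standard error, for all lymphomas minus normal dogs and for the study's B-cell set minus its normal nodes; red marks an adjusted p under 0.05. CTSB and CTSD each have a probe set far to the left of its partner, at -1.07 against -0.04 and at -2.00 against -0.47 over all lymphomas.

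Over the whole family, 0 of 8 genes passed between all 10 lymphomas and the 3 normal dogs at an adjusted p under 0.05 from limma, where 3.66% of 9216 genes did (1.09% higher and 2.57% lower). At an unadjusted p under 0.05 limma counted 1 gene, CTSD, where 18.6% of genes did, and the methods' t-test counted 1, CTSS, and 0 after adjustment. Of the 8 log2 differences, 6 were below 0, and their median was -0.50 beside -0.02 over all genes tested. CTSS was the gene with no overlap between lymphoma and normal dogs, 1 of 8, beside 5.15% of all genes that were lower with no overlap and 2.48% that were higher.

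The study's own B-cell comparison set RB03, RB16, FS21 and NE42, chosen in part for profiles without many T cells, against nodes 2970, 3024r and 63. Here again 0 of 8 cathepsin genes passed in limma, where 10.9% of 8295 genes did (3.48% higher and 7.39% lower). At an unadjusted p under 0.05 limma counted 4 genes, CTSB, CTSD, CTSK and CTSZ, where 30% of all genes did, and the methods' t-test counted 3, with 0 after adjustment. The 4 genes were close to the threshold. CTSK averaged 8.91 ± 0.28 in the lymphomas (SD, n = 4) and 10.25 ± 0.87 in the normal nodes (SD, n = 3), a log2 difference of -1.34 (SE 0.42, adjusted p = 0.0824). CTSB differed by -0.98 (SE 0.32, adjusted p = 0.0907), CTSD by -1.39 (SE 0.46, adjusted p = 0.0940) and CTSZ by 0.66 (SE 0.24, adjusted p = 0.111).

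In that set CTSB, CTSK and CTSS were lower with no overlap, 3 of 8 genes beside 18% of all genes, and CTSZ was higher with no overlap, 1 of 8 beside 13.7%. The median over the 8 genes was -0.67, and that over all genes tested was -0.06. CTSZ had 12.08 in FS21, 12.07 in NE42, 12.44 in RB03 and 12.54 in RB16, against 11.68, 11.39 and 11.79 in 63, 2970 and 3024r. On single probe sets, where 7.76% of 23510 passed, Cfa S1_s_at of CTSB was lower (-1.65, SE 0.40, adjusted p = 0.0496), as was CfaAffx S1_s_at of CTSD (-2.08, SE 0.48, adjusted p = 0.0449). The CTSB call was lost without any 1 of 6 dogs and the CTSD call without any 1 of 5 (adjusted p of up to 0.177 and 0.170). With signals raised to at least 100 before log2, CTSB, CTSD, CTSK and CTSZ passed with adjusted p between 0.0314 and 0.0482, where 21.8% of all genes did, although the differences of these 4 genes were the same values. The same 4 genes passed with limma's trend and robust prior, with adjusted p between 0.0332 and 0.0437, where 15.8% of all genes did.

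Against the normal dogs, the 3 lymphomas labelled T-cell gave 0 of 8 genes called, where 1.22% of 7936 genes were (0.265% higher and 0.958% lower), and 2 genes, CTSD and CTSS, at an unadjusted p under 0.05 (16.3% of all genes; 0 by the methods' t-test). All 8 log2 differences were below 0 and their median was -0.61, beside -0.03 over all genes tested. CTSS averaged 11.81 ± 0.71 in the T-cell lymphomas (SD, n = 3) and 12.73 ± 0.15 in normal dogs (SD, n = 3), a log2 difference of -0.92 (SE 0.36, adjusted p = 0.214 from limma). CTSB and CTSS were lower with no overlap, 2 of 8 beside 13.9% of all genes, and 0 were higher, beside 11.1%. CTSH, at -0.05, turned to 0.42 without NE45.

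Lymphomas labelled B-cell and T-cell gave 0 of 8 genes called, and 0% of 8567 genes were called in either direction. At an unadjusted p under 0.05 there was 1 cathepsin, CTSZ (4.67% of all genes; 0 cathepsins by the methods' t-test). CTSZ averaged 11.94 ± 0.70 in lymphomas labelled B-cell (SD, n = 7) and 10.88 ± 1.07 in those labelled T-cell (SD, n = 3), a log2 difference of 1.06 (SE 0.48, 95% interval 0.02 to 2.09, adjusted p = 0.902 from limma). The intervals of the other 7 genes all held 0, and 0 of 8 were free of overlap, beside 0.432% of all genes higher and 0.444% lower. Without RB07, RB10 and FS22, whose markers went against their labels, the CTSZ difference was 1.96 (adjusted p = 0.00947 from limma), where 6.1% of genes passed. These 3 lymphomas were set aside by their profiles, which left only NE45 and FS25, both in class K-N, as T-cell. Every B-cell lymphoma left was in class E-J. The contrast thus follows the classes drawn from these same profiles and is not independent evidence.

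**Figure D3:**
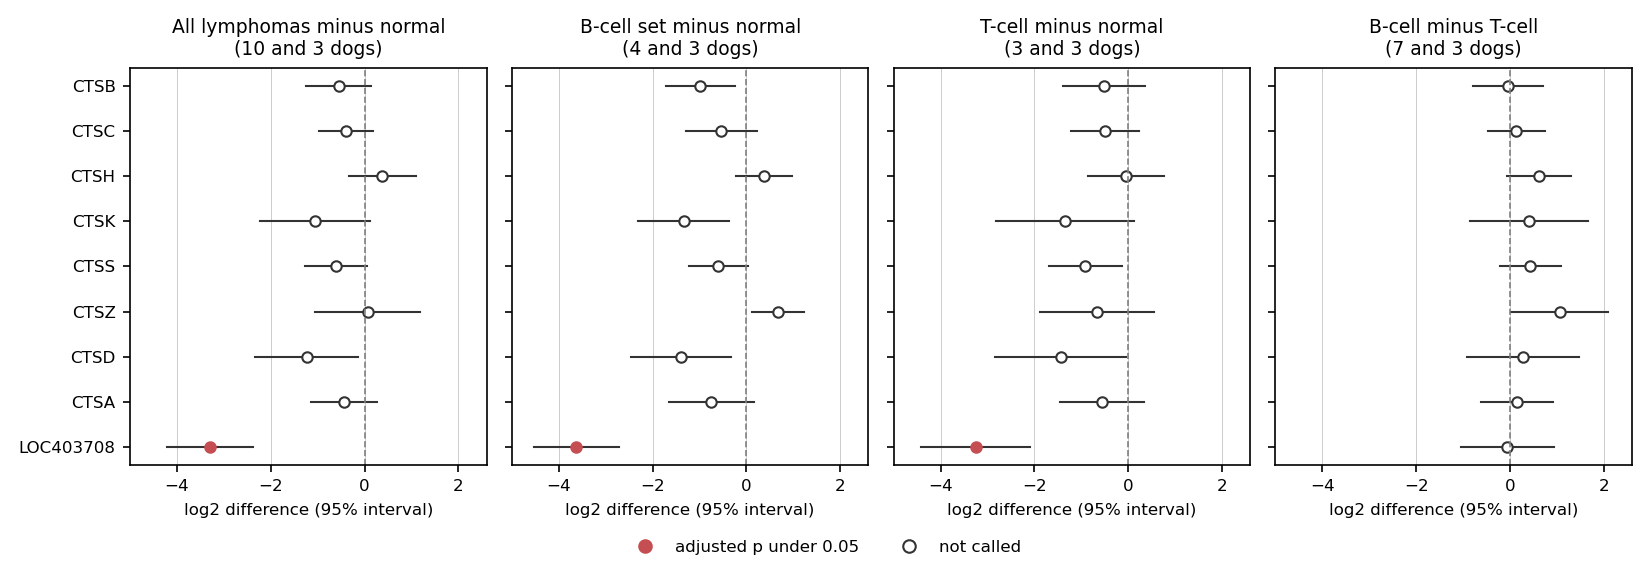
Log2 difference of each cathepsin gene and of LOC403708 on the x axis, with its 95% interval, in the 4 comparisons; filled red points have an adjusted p under 0.05. The 8 cathepsin genes are open points in every panel, and LOC403708 is the filled point at -3.29, -3.62 and -3.25 in the 3 comparisons with normal nodes.

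LOC403708 is outside the rule, since its symbol on the array is not CTSL. The RefSeq gene table lists CTSL among its synonyms and gives its type as pseudogene, and its pair of probe sets could read a cathepsin L transcript, which was not tested. Cathepsin L is a strong endopeptidase that, like cathepsin S, can cut the invariant chain. The log2 signal of LOC403708 was 8.21 in FS21, 8.17 in NE41, 8.83 in NE42, 9.06 in RB03, 7.93 in RB16, 9.85 in FS22, 9.70 in RB07, 8.70 in RB10, 8.26 in FS25 and 8.05 in NE45. Normal nodes had 11.50 in 63, 12.52 in 2970, 12.37 in 3024r and 11.40 in 3024l. Every lymphoma of either class was below every normal node, and the class means were 8.68 in class E-J and 8.68 in class K-N. Over all genes tested, 5.15% were lower in lymphoma than in normal dogs with no overlap.

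LOC403708 averaged 8.68 ± 0.68 in lymphoma (SD, n = 10) and 11.97 ± 0.52 in normal dogs (SD, n = 3), a log2 difference of -3.29 (SE 0.42, adjusted p = 0.00385 from limma), lower in 10 of 10 lymphomas. It was also lower in the study's B-cell set (-3.62, SE 0.38, adjusted p = 0.00427 from limma) and in T-cell lymphoma (-3.25, SE 0.54, adjusted p = 0.0192 from limma). Of all genes, 2.57% were called lower over all lymphomas, 7.39% in the B-cell set and 0.958% in T-cell lymphoma. The LOC403708 probe set Cfa A1_s_at had signals of 207 to 891 in lymphoma and 1809 to 3137 in normal nodes, and CfaAffx S1_s_at had 283 to 959 in lymphoma and 4009 to 12555 in normal nodes. Both passed on their own over all lymphomas (adjusted p = 0.00938 and 0.00132). The call over all lymphomas held without any 1 dog, with an adjusted p of up to 0.0499. In the B-cell set it was lost without 3024r or 2970 (adjusted p = 0.0505 and 0.0627), and in T-cell lymphoma without NE45, FS25, 63, 2970 or 3024 (adjusted p = 0.064 to 0.143), while the log2 difference was between -3.94 and -2.92 throughout.

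**Figure D4:**
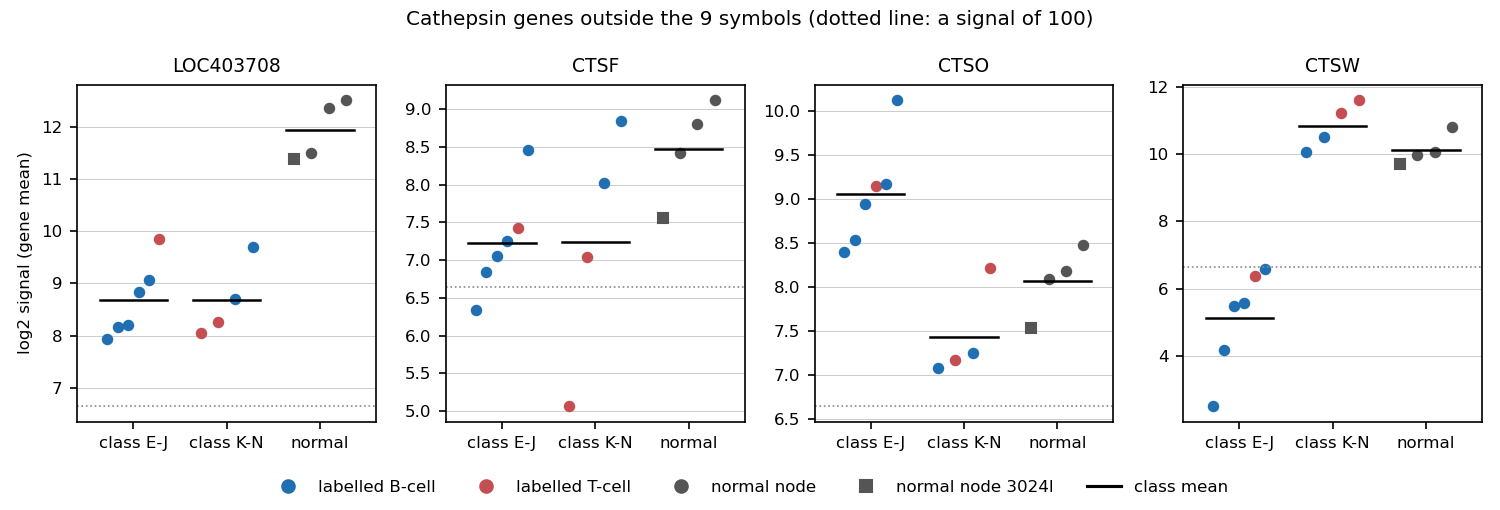
Log2 signal on the y axis of 4 genes outside the rule, by class E-J (6 arrays), class K-N (4 arrays) and normal (4 arrays) on the x axis; points are arrays coloured by the label, the square is node 3024l, the line is the class mean and the dotted line is a signal of 100. LOC403708 is between 7.93 and 9.85 in every lymphoma and between 11.40 and 12.52 in normal nodes, and CTSW is between 2.52 and 6.59 in class E-J and between 10.05 and 11.61 in class K-N.

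Of the other cathepsins, CTSF, CTSO and CTSW were tested and CTSE, CTSG and CTSL3 were under the filter in all 4 comparisons. CTSW, the cathepsin of cytotoxic T and NK cells, was under a signal of 100 on all 6 class E-J arrays and at 1062 to 3121 in class K-N, against 827 to 1787 in normal nodes. In the study's B-cell set CTSW was lower (adjusted p = 0.0150 from limma). All 4 arrays of that set were under 100, so its log2 difference is given as a bound, at least as low as -3.63 with signals raised to 100, against -5.57 as measured. With any 1 of the normal dogs left out CTSW was under the filter there. The set was chosen in part for its lack of a T-cell profile, so that its lower CTSW is not independent evidence. CTSO had 337 to 1120 in class E-J and 135 to 297 in class K-N, against 186 to 356 in normal nodes, and thus shared with CTSZ the split between classes, on which no test was run. CTSF was at -1.40 (SE 0.62, adjusted p = 0.242 from limma) over all lymphomas. In the study's B-cell set CTSF was at -1.50 (SE 0.49, adjusted p = 0.0898 from limma), and it passed under 5 of 22 alternatives. Tested on their own there, its probe sets Cfa A1_s_at and Cfa A1_at were lower, at -2.01 and -1.69 (adjusted p = 0.0108 and 0.0473 from limma). Its other probe sets did not pass, and 7.76% of all probe sets did.

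Among the genes that sort or activate lysosomal enzymes, 1 of 9 was lower and 0 were higher over all lymphomas, beside 2.57% lower over all genes, with a median of -0.13. The gene was LGMN, which encodes legumain, the protease that cuts cathepsin proenzymes to their mature chains. LGMN averaged 8.45 ± 0.77 in lymphoma (SD, n = 10) and 10.49 ± 0.47 in normal dogs (SD, n = 3), a log2 difference of -2.04 (SE 0.46, adjusted p = 0.0336), with no overlap. TPP1, a lysosomal tripeptidyl peptidase, was at -1.09 (SE 0.33, adjusted p = 0.0835), and PSAP, the precursor of the saposins, at -1.07 (SE 0.42, adjusted p = 0.180). LGMN was also lower in the study's B-cell set, at -2.00, and in T-cell lymphoma, at -2.58 (adjusted p = 0.0150 and 0.0423 from limma). The call over all lymphomas was lost without 63, 2970 or 3024 (adjusted p = 0.0914 to 0.203), and that in the B-cell set without 3024r or 2970 (adjusted p = 0.0865 and 0.0977). In T-cell lymphoma it was lost without NE45, FS25, NE42, 63, 2970 or 3024 (adjusted p = 0.0535 to 0.192). The log2 difference of LGMN was between -3.19 and -1.78 throughout.

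A list of protease inhibitors held cystatins and serpins, whose action on the cathepsins above was not tested. In that list 1 of 6 was lower over all lymphomas and 0 were higher, beside 2.57% lower over all genes, with a median of -1.48. It was SERPINB6, an intracellular serpin, at 6.44 ± 0.66 in lymphoma (SD, n = 10) and 8.09 ± 0.42 in normal dogs (SD, n = 3), a log2 difference of -1.65 (SE 0.41, adjusted p = 0.0425 from limma). Its call was lost without any 1 of 11 dogs, with an adjusted p of up to 0.231. SERPINB1 was at -2.02 (adjusted p = 0.0734), CSTA, which encodes stefin A, at -3.24 (adjusted p = 0.212), and CSTB, which encodes stefin B, at -0.65 (adjusted p = 0.443). In the B-cell set 1 of 7 was lower, beside 7.39% of all genes. It was SERPINB1 at -2.31 (adjusted p = 0.0357 from limma), a call lost without FS21, RB16, 63, 2970 or 3024r (adjusted p = 0.0595 to 0.154).

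Of the other lysosomal hydrolases, 1 of 20 was lower over all lymphomas and 0 were higher, beside 2.57% lower over all genes. Their median was -0.67, next to the -0.50 of the cathepsins. LIPA, the lysosomal acid lipase, averaged 7.20 ± 0.80 in lymphoma (SD, n = 10) and 9.49 ± 0.26 in normal dogs (SD, n = 3), a log2 difference of -2.29 (SE 0.47, adjusted p = 0.0227 from limma). The call was lost without 63, 2970 or 3024 (adjusted p = 0.0787 to 0.164). ASAH1, the acid ceramidase, was at -1.30 (adjusted p = 0.0657) and IDS, the iduronate sulfatase, at -1.16 (adjusted p = 0.0932). In the study's B-cell set 2 of 19 were lower, LIPA at -2.51 and ASAH1 at -1.59 (adjusted p = 0.0274 and 0.0294). Genes of the lysosomal membrane and the proton pump gave 0 of 20 calls over all lymphomas, beside 3.66% of all genes, with a median of -0.28. In the B-cell set 2 of 20 were lower, the pump subunit ATP6V0C and NPC2, a carrier of cholesterol (adjusted p = 0.0325 and 0.0465 from limma). Over all genes 7.39% were lower in that set. Of these 4 calls in the B-cell set, that of LIPA was lost without 4 of the 7 dogs, those of ASAH1 and NPC2 without 6 and that of ATP6V0C without 3, with adjusted p of up to 0.181, and with any 1 normal dog left out ATP6V0C was under the filter.

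Class II antigen processing, in which cathepsin S takes part, gave 0 of 9 calls over all lymphomas, beside 3.66% of all genes, with a median of -0.69. CD74, which encodes the invariant chain, averaged 13.27 ± 0.83 in lymphoma (SD, n = 10) and 14.15 ± 0.18 in normal dogs (SD, n = 3), a log2 difference of -0.88 (SE 0.48, adjusted p = 0.350 from limma). Among transcription factors of the TFEB family 0 of 3 passed over all lymphomas, beside the same share of all genes. In the B-cell set 1 of 3 was lower, beside 7.39% of all genes. It was TFE3 at -2.29 (SE 0.55, adjusted p = 0.0401 from limma), a call lost without any 1 of 6 dogs (adjusted p of up to 0.149).

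Markers of macrophages moved with the groups. Of 18 macrophage markers tested, 12 were lower over all lymphomas (2.57% of all genes) and 0 were higher, with a median of -2.49. In the B-cell set 14 were lower (7.39% of all genes) and in T-cell lymphoma 7 (0.958% of all genes). These counts rested on few normal dogs, since over all lymphomas 7 markers passed without 63, 6 without 3024 and 2 without 2970, and in the B-cell set 6 without 63, 3 without 3024r and 3 without 2970. In T-cell lymphoma 2 passed without FS25, 1 without 63 and 0 without NE45, 2970 or 3024. MARCO, a scavenger receptor of sinus macrophages, was at -6.33 and C1QB, a complement chain, at -3.16 (adjusted p = 0.00776 and 0.000955 from limma). The log2 signal of MARCO was 4.00 to 10.73 in lymphoma and 12.71 to 15.00 in normal nodes. Other markers of the list overlapped. CD14 was 6.97 to 11.60 in lymphoma and 6.33 to 10.26 in normal nodes, and LYZ 12.50 to 15.27 and 13.79 to 14.08. Stromal and endothelial markers were lower for 5 of 9 genes over all lymphomas, 8 of 9 in the B-cell set and 2 of 9 in T-cell lymphoma, beside the same shares of all genes. Granulocyte markers gave 0 of 3 calls in each, with medians of -2.35, -3.88 and -1.41 in these comparisons. Some markers were tested through the normal nodes alone, so their log2 differences are bounds. In every lymphoma of the B-cell set DCN, COL3A1, CD163, VSIG4 and FCGR1A were under a signal of 100. The 8 of 9 stromal and endothelial calls there thus include DCN, COL3A1 or both. CD163, VSIG4, DCN and COL6A3 were under 100 in every T-cell lymphoma, and VSIG4 in all lymphomas. The part of macrophages, granulocytes, stromal and endothelial cells in the cathepsin levels was not tested.

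Within classes the family moved in part together. Deviations from the class mean over 13 dogs gave a Pearson r of 0.86 for CTSH with CTSZ, of 0.82 for CTSH with CTSS and of 0.75 for CTSB with CTSD, while those of CTSA with the other 7 genes ran from -0.21 to 0.27. The deviations share array, RNA quality and class size, and NE45 was the lowest lymphoma for CTSD, CTSH, CTSS and CTSZ. Within the 6 lymphomas of class E-J alone, r was 0.47 for CTSH with CTSZ and 0.42 for CTSH with CTSS, and it was 0.72 for CTSB with CTSD. With the mean log2 signal of the 19 macrophage markers, r was 0.87 for CTSH, 0.81 for CTSS, 0.80 for CTSK, 0.80 for CTSB, 0.79 for CTSD, 0.56 for CTSZ, 0.48 for CTSC and 0.09 for CTSA. Among lymphomas this mean was lowest in NE45 (6.69) and highest in RB07 (8.57), and RB07 was also the highest for CTSB, CTSD, CTSH and CTSK. For the macrophage mean no r was taken within class E-J alone.

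**Figure D5:**
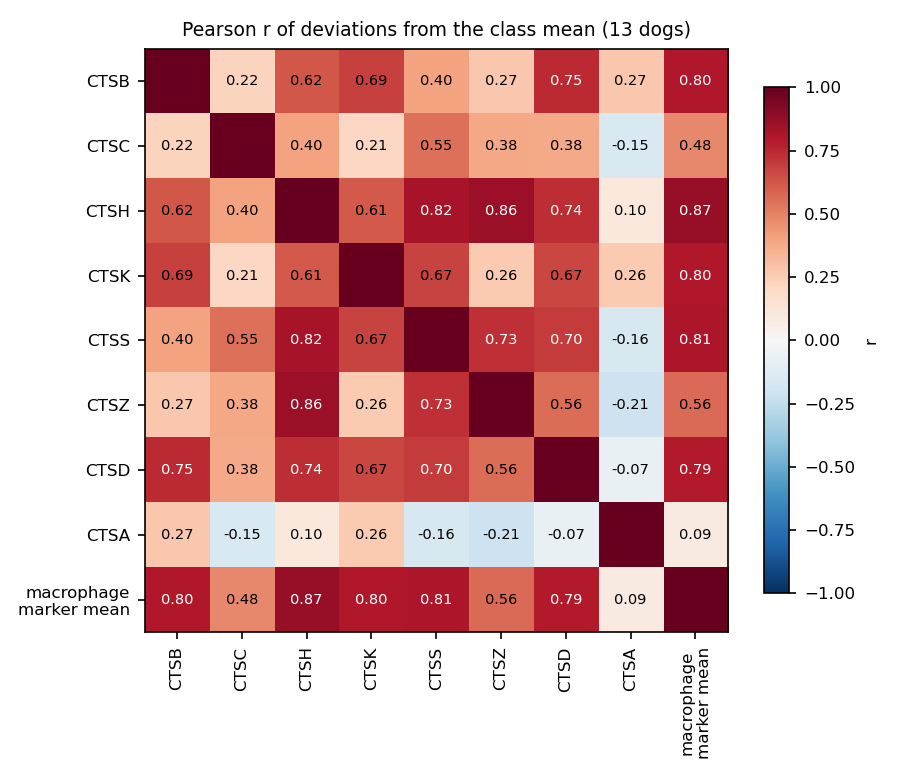
Matrix of the Pearson r between cathepsin genes, and between each gene and the mean log2 signal of 19 macrophage markers, over deviations from the class mean in 13 dogs; red cells are positive and blue cells negative. The row of CTSA is pale, with r of 0.09 against the macrophage mean, where CTSH has 0.87.

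Over the same deviations, the gene most like CTSB was PDPN (podoplanin) with r = 0.97, followed by ANXA1 with 0.94 and TIMP2, an inhibitor of matrix proteases, with 0.92. CTSK was most like GPNMB, a glycoprotein of macrophages and osteoclasts, with 0.94, then LOC490356 with 0.92 and ARMCX1 with 0.84. CTSD was most like ASAH1 with 0.92, then STPG2 with 0.92 and B4GAT1 with 0.91. CTSH was most like RNF103, TMEM198 and STAP1, each with 0.93, CTSS like DPT, TMEFF2 and CALML6, each with 0.93, and CTSZ like SOS1 with 0.93, SNAI2 with 0.92 and POLR3A with 0.91. CTSC was most like MMUT with 0.94, HEMGN with 0.87 and PI4KA with 0.85, and CTSA like OTUD6B with 0.94, ZNF277 with 0.88 and GGCT with 0.87. Such values are the highest of many genes over 13 dogs and are given as a description.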

How the data were processed

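RNA of fine needle aspirates was extracted with the RNeasy Micro kit, amplified with WT-Ovation Pico and hybridised to 1 array per sample. The authors' deposited values are MAS5 signal intensity per probe set on a linear scale, scaled by the authors to a common trimmed mean, with no replicate pooled. The number of arrays limits the precision. Signals were taken to log2, 111 control probe sets were left out, and the mean over the probe sets with exactly 1 symbol in the platform annotation gave 15115 genes (13332 probe sets had no symbol there and 439 had several). All columns of the deposited table were used. Genes that reached a signal of 100 in 3 or more dogs of a comparison were tested in limma 3.58.1 (R 4.3.3) with Benjamini-Hochberg adjustment over all genes tested and a threshold of 0.05. Both nodes of dog 3024 were averaged as 1 replicate, except in the study's B-cell set, which holds 3024r. T-cell against normal and B-cell against T-cell were contrasts of a single fit over 13 dogs. Dogs were the replicates, and p-values measure the spread between them. Arrays were hybridised in batches, whose members are not given in the sources used here, so no batch was tested. Figures were drawn in matplotlib 3.10.9.

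Every cathepsin with a probe set is named, with up to 4 genes per list by smallest p over all lymphomas, and per cathepsin the 3 genes with the highest r within classes. LOC403708, ATP6V0C, CSTB, CD14 and LYZ lie outside this rule and were chosen after their values were seen. The members and lists were chosen with earlier results of these data known. On simulated data with 100 genes changed by 2 on the log2 scale, limma recovered 53 over all lymphomas, 14 in the B-cell set, 39 in T-cell against normal and 55 in B-cell against T-cell, and with a change of 1 it recovered 6, 0, 1 and 8. For the B-cell set the simulated spread came from all dogs, with the lymphomas outside the set pooled as a single group. Fewer genes were changed there than passed in the measured data, so its counts do not give the power of the real test. The alternatives were other filters, a pseudocount of 50, a floor of 100, other scalings and gene summaries, the methods' t-test, other choices of arrays and leaving out each dog. Leaving out each dog in turn for the called partner genes and single probe sets was chosen after seeing the data.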

Additional observations from a re-analysis of the deposited data

Results flagged for a closer look

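Among the 24 groups of 4 to 10 arrays examined for a value far from the rest, 3 were marked, and chance marks about 1 in 20 such groups. RB07 had a log2 signal of 12.43 for CTSB where the next lymphoma had 11.61. RB07 also had 11.05 for CTSK where the next lymphoma had 9.68. NE45 had 9.04 for CTSH where the next lymphoma had 10.28. No sample was left out on these grounds.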

How the results depend on the processing

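At the gene level none of the 8 cathepsin genes of the rule passed over all lymphomas, in T-cell against normal or, leaving out each dog, in any comparison (0 to 0 genes). In the B-cell set 3 passed with a pseudocount of 50, 4 with a floor of 100, 1 (CTSZ) with probe sets averaged before log2 and 4 with limma's trend and robust prior, where 19.4%, 21.8%, 16.2% and 15.8% of all genes passed. In B-cell against T-cell 1 passed without RB07, RB10 and FS22, a contrast that follows the classes drawn from these same profiles. With LOC403708 counted as CTSL, chosen after seeing the data, 1 passed in each comparison with normal nodes. Signs turned only for genes that passed in neither setting. They were CTSZ over all lymphomas with quantile normalization (-0.079) and leaving out dogs (-0.032 to 0.276), CTSC in the B-cell set with 3024l in place of 3024r (0.054), CTSH in T-cell against normal with median centring (0.066), with 3024l alone (0.178) and leaving out dogs (-0.316 to 0.420), and, in B-cell against T-cell, CTSC and CTSK with clinic as a block (-0.034 and -0.184), CTSA without RB07, RB10 and FS22 (-0.144), CTSD (-0.253 to 0.690) and CTSB (-0.231 to 0.056) leaving out dogs. LOC403708 was lower over all lymphomas under all 26 alternatives, and by the methods' t-test it lost its call in the B-cell set (adjusted p = 0.0564) and in T-cell lymphoma (0.337; 0.0659 with no filter). CTSW in the B-cell set lost it with the methods' t-test (0.0821) and all 7 lymphomas labelled B-cell (0.212). The cause was not tested. All genes called over all lymphomas numbered 337, and 10 without 2970, 57 without 3024, 79 without 63, 112 with no filter, 715 with the pseudocount, 918 with a floor, 561 with linear means, 884 with the methods' t-test and 197 with 3024l alone. In the B-cell set they numbered 902, and 8 with the methods' t-test, 193 with no filter, 1613, 1807, 1424 and 1314 in the settings above, 232 with 3024l and 169 with all 7. In T-cell against normal they numbered 97, and between 0 and 529. A random block for the dog could not be fitted, since a single dog had more than 1 array. No paired analysis was possible because the groups share no replicate numbers that pair dogs. The number of arrays and the spread of the 3 normal dogs limit the precision.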
